A study of Arabidopsis thaliana with 28 samples.

Results

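The dms5-1 mutant was compared with nrpe1 to see how close dms5-1 comes to a full loss of RNA polymerase V (Pol V) transcripts in Arabidopsis thaliana. The comparison used 4 of the 24 IPARE libraries of the study: 2 of dms5-1 and 2 of nrpe1, chosen because they carry the same tags, gp5 and gp6. The 2 wild-type Col-0 libraries with these tags served as the scale. In IPARE, RNA bound by an antibody against NRPE1 is pulled down and the 5′ ends of that RNA are sequenced after template switching. All 6 libraries came from seedlings of the Columbia ecotype, 18 days old, and no transgene or treatment is given for any of them. The groups were dms5-1 (replicate 1 with tag gp5 and replicate 2 with tag gp6), nrpe1 (replicate 4 with tag gp5 and replicate 5 with tag gp6) and Col-0 (replicates 4 and 5 with the same tags). The drd3-3 mutant (replicates 1 and 2 with the same tags, seedlings of the same age and ecotype) is set beside dms5-1 in 1 comparison. Libraries of the same tag are set beside each other in ratios and in shares of Col-0, as a way to show each library. The main tests do not pair them. What the tags stand for, which nrpe1 allele was used and what the dms5-1 mutation changes is not stated in the labels. The gene table lists DMS5 as a synonym of NRPE1 (AT2G40030, symbol NRPD1B), so dms5-1 and nrpe1 are mutants of the same gene.

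Pol V is a plant polymerase that makes non-coding transcripts, mostly at transposons and other repeats. In RNA-directed DNA methylation (RdDM), these transcripts act as a scaffold: small RNAs carried by ARGONAUTE proteins pair with them and bring in the methyltransferase that methylates cytosines in all sequence contexts. NRPE1 is the largest, catalytic subunit of Pol V, and methylation of cytosines in the CHH context (H is any base but G) depends on it at short transposons and at the edges of long ones. The antibody binds the product of the gene that is mutated in both lines, so less transcription and less protein to pull down cannot be told apart in these libraries. In whole seedlings, fewer cells with a transcript and fewer transcripts per cell cannot be told apart either.

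The deposited table counts reads in 200-bp windows placed 150 bp apart, which the authors sorted into 3 classes. The RdDM class holds 158314 windows (19.9%) transcribed by Pol V at RdDM targets. The non-RdDM class holds 204367 windows (25.7%) transcribed by Pol V elsewhere, and 431630 windows (54.3%) form a class called free of Pol V transcription. The labels attach these lists to Col-0 and nrpe1 libraries without a tag or with gp3 or gp4, and not to the 6 libraries compared here. Col-0 leaves had a mean CHH methylation of 10.2% in the RdDM class and 0.169% in the non-RdDM class. Mean CHH methylation of the RdDM class was 6.88% in nrpe1 leaves. Methylation levels are the authors' averages over leaf samples of 3.5-week-old plants, with no coverage given, and no dms5-1 leaf sample was used here.

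Total counts were 915067 and 1183943 in dms5-1 (gp5, then gp6, as in every pair of values below), 1500643 and 840847 in nrpe1, and 1736607 and 1098651 in Col-0. Windows of the ribosomal DNA took 70.1% and 62.0% of the counts in dms5-1, 62.5% and 63.1% in nrpe1, and 38.9% and 41.4% in Col-0. This share was higher in both mutants than in Col-0, and its part in the comparisons with Col-0 was not tested. Levels below are therefore scaled by the counts of the class free of Pol V transcription, with ribosomal DNA left out, called background counts. Class levels are counts per 1000 background counts, and levels of stretches and genes, called normalised counts, are per 1000000 background counts. There were 238959 and 388941 background counts in dms5-1, 489157 and 267801 in nrpe1, and 407860 and 307100 in Col-0. The NRPE1 gene itself had 3 and 0 counts in dms5-1, 7 and 0 in nrpe1, and 5 and 2 in Col-0, too few to check a label.

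The RdDM signal of dms5-1 was near that of nrpe1 and far below that of Col-0. The level of RdDM windows was 61.6 and 77.7 per 1000 background counts in dms5-1, 82.7 and 76.0 in nrpe1, and 1250 and 855 in Col-0. The gp6 library of dms5-1 lay between the 2 nrpe1 libraries, the gp5 library below both, and all 4 mutant libraries were far below Col-0. The means were 69.6 ± 11.4 in dms5-1, 79.3 ± 4.69 in nrpe1 and 1053 ± 279 in Col-0 (SD, n = 2 each). The difference of dms5-1 from nrpe1 was -0.20 ± 0.18 on the log2 scale (SE; exact two-sided permutation test, p = 0.667, n = 2 each, where the smallest p possible is 0.333). This misses the threshold, which does not show that the mutants are alike.

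The ratio of dms5-1 to nrpe1 was 0.745 in gp5 (95% counting interval 0.731 to 0.759) and 1.02 in gp6 (1.00 to 1.04), so the tags differed by more than counting error. In dms5-1 the RdDM level was 4.93% and 9.08% of that of Col-0, and in nrpe1 it was 6.61% and 8.89%. The share of the Pol V signal that dms5-1 retained, its difference from nrpe1 divided by that of Col-0 from nrpe1, was -1.81% in gp5 and 0.210% in gp6. A value of 0 stands for the level of nrpe1 and 100 for that of Col-0. The 2 libraries lay on either side of the nrpe1 level, within 2% of the distance to Col-0.

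Over all RdDM windows, a wider set of libraries gave the same order of the means. The RdDM level ranged from 76.0 to 219 over the 5 nrpe1 libraries of the series, with both dms5-1 libraries at the low end or below it. Set against these 5, dms5-1 was -0.70 on the log2 scale (exact permutation test, p = 0.190, 0.254 after Benjamini-Hochberg adjustment over 4 tests). Set against the 6 Col-0 libraries, dms5-1 was -4.51 (exact permutation test, p = 0.0357, the smallest p possible, 0.0714 adjusted). With the 2 Col-0 libraries of the same tags the difference was -3.90 ± 0.32 (SE; exact permutation test, p = 0.333, the smallest p possible, n = 2 each).

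**Figure D1:**
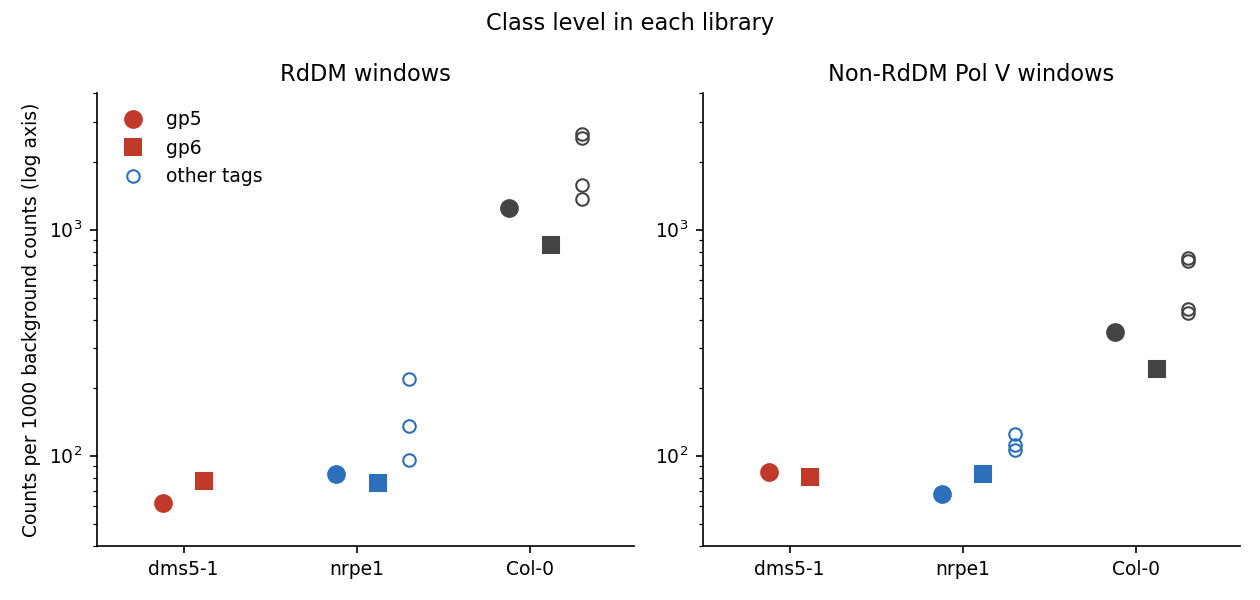
Level of the RdDM and non-RdDM windows in each library of dms5-1, nrpe1 and Col-0, in counts per 1000 background counts on a log axis. Filled circles are gp5, filled squares gp6 and open circles libraries of other tags; RdDM levels of dms5-1 (61.6 and 77.7) sit beside those of nrpe1 (82.7 and 76.0), with Col-0 at 1250 and 855.

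Most of what remained in dms5-1 fell in a small set of windows that are also read in nrpe1. Of the RdDM windows, 444 (0.281%) held at least 20 counts over the nrpe1 libraries of other tags. These windows took 72.3% and 78.3% of the RdDM counts of dms5-1, 80.0% and 72.3% of those of nrpe1, and 4.82% and 9.98% of those of Col-0. The highest of them, chr3:13594051-13594250 (TAIR10), overlaps no annotated gene and had 404 and 1032 counts in dms5-1, 1423 and 734 in nrpe1, and 823 and 1099 in Col-0. A similar window, chr5:11188801-11189000, had 511 and 1080 counts in dms5-1, 1239 and 536 in nrpe1, and 901 and 1074 in Col-0. Another, chr1:16431001-16431200, lies within 1 kb of UGT80B1, a sterol glucosyltransferase gene, and had 419 and 778 counts in dms5-1, 899 and 459 in nrpe1, and 663 and 762 in Col-0. All 3 windows were read in every library, whatever the genotype.

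Without these 444 windows the RdDM level was 17.0 and 16.9 per 1000 in dms5-1, 16.5 and 21.03 in nrpe1, and 1190 and 770 in Col-0. That is 1.43% and 2.19% of Col-0 in dms5-1, and 1.39% and 2.73% in nrpe1. The retained share was 0.0471% and -0.552%. The 2 dms5-1 libraries fell within the range of the 2 nrpe1 libraries, with a difference of -0.13 ± 0.18 on the log2 scale (SE; exact permutation test, p = 1, n = 2 each). Over the 5 nrpe1 libraries of the series this level ran from 9.58 to 36.2, with both dms5-1 libraries inside the range. The 444 windows were chosen on those of the 5 that carry other tags. The ratio of dms5-1 to nrpe1 was 1.03 in gp5 (95% counting interval 0.995 to 1.07) and 0.803 in gp6 (0.775 to 0.833).

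A further allele of the gene, drd3-3, gives a partial loss with which dms5-1 can be compared, since the gene table lists DRD3 as a synonym of NRPE1 too and its 2 libraries carry the same tags. Over all RdDM windows the level was 61.6 and 77.7 per 1000 in dms5-1 and 259 and 213 in drd3-3, a difference of -1.76 ± 0.22 on the log2 scale (SE; exact permutation test, p = 0.333, the smallest p possible, n = 2 each). There the lower drd3-3 library (213) lay below the highest of the 5 nrpe1 libraries of the series (219). Without the 444 windows, the level was 17.0 and 16.9 per 1000 in dms5-1 and 185 and 150 in drd3-3. Retained shares were then 0.0471% and -0.552% in dms5-1, and 14.4% and 17.2% in drd3-3, with the same nrpe1 and Col-0 libraries behind all 4. The groups overlapped on neither set of windows, and without the 444 windows dms5-1 was -3.29 ± 0.15 from drd3-3 on the log2 scale (SE; exact permutation test, p = 0.333, the smallest p possible, n = 2 each).

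In none of the 5 groups of RdDM windows by CHH methylation were both dms5-1 libraries above both nrpe1 libraries, the windows of high nrpe1 counts left out. In windows with more than 20% CHH methylation in Col-0 leaves, the level was 3.90 and 3.86 per 1000 in dms5-1, 4.04 and 5.08 in nrpe1, and 328 and 220 in Col-0. In windows with 0 to 1% CHH methylation it was 1.34 and 1.35 in dms5-1, 1.58 and 1.91 in nrpe1, and 93.6 and 57.4 in Col-0. Both dms5-1 libraries were below both nrpe1 libraries at each end of the scale, while in the 3 groups between them the mutants overlapped. As a share of Col-0, dms5-1 kept 1.43% and 2.36% in the group of 0 to 1% CHH methylation, 1.41% and 2.51% at 1 to 5%, 1.93% and 2.61% at 5 to 10%, 1.72% and 2.52% at 10 to 20%, and 1.19% and 1.76% above 20%. The same shares in nrpe1 were 1.69% and 3.33%, 1.47% and 2.89%, 1.50% and 3.06%, 1.54% and 3.05%, and 1.23% and 2.31%. In both mutants the lowest share of Col-0 was thus that of the windows with the most CHH methylation.

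**Figure D2:**
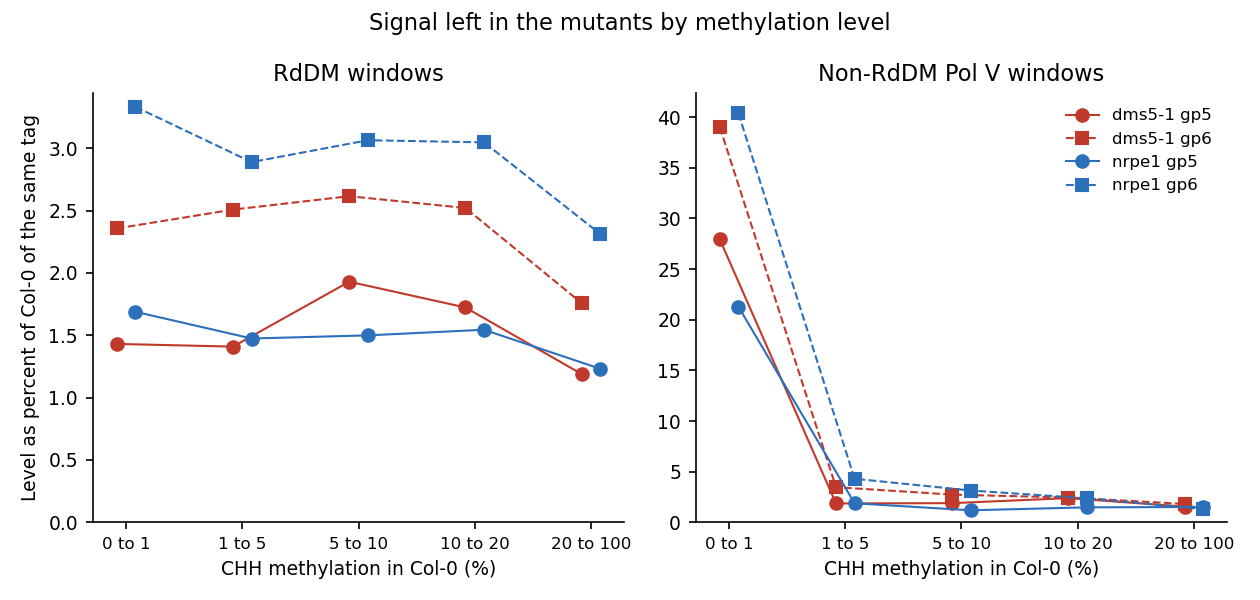
Level left in dms5-1 and nrpe1 as percent of the Col-0 library of the same tag (circles gp5, squares gp6), for RdDM and non-RdDM windows grouped by CHH methylation in Col-0 leaves, without the windows of high nrpe1 counts. In the highest RdDM group dms5-1 kept 1.19% and 1.76% and nrpe1 1.23% and 2.31%, while non-RdDM windows of 0 to 1% CHH methylation kept 27.9% and 39.0% in dms5-1 and 21.3% and 40.4% in nrpe1.

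Retained shares of dms5-1 over the 5 CHH groups ran from -0.262% to 0.437% in gp5 and from -1.01% to -0.392% in gp6. With the 444 windows put back, the group of 10 to 20% CHH methylation gave -6.57% and 2.2%, a spread of opposite signs between the tags. RdDM windows were also grouped by the CHH methylation left in nrpe1 leaves, by the loss of CHH methylation in nrpe1, by CG and CHG methylation, by Col-0 counts in other tags, by annotation, by chromosome and by the length of the stretch they belong to. These groupings divide the same windows of the same libraries in several ways, so the groups are not separate observations. An exact permutation test of 2 against 2 libraries cannot go below p = 0.333, so a lack of overlap in 1 group shows little. Over all 44 groups, without the windows of high nrpe1 counts, the dms5-1 and nrpe1 libraries overlapped in 28, both dms5-1 libraries were lower in 16, and both were higher in 0. With those windows put back, they overlapped in 30 groups, both dms5-1 libraries were lower in 12 and both were higher in 2, with retained shares from -10.7% to 2.2%. In 0 of the 44 did a dms5-1 library reach a Col-0 library, with or without them.

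The group farthest above nrpe1 was that of the 39447 RdDM windows with the fewest Col-0 counts in other tags. There dms5-1 kept 3.44% and 4.31% of Col-0, nrpe1 kept 1.89% and 4.48%, and the retained share of dms5-1 was 1.57% and -0.185%. In the 39447 windows with the most Col-0 counts, dms5-1 kept 1.14% and 1.80% and nrpe1 kept 1.27% and 2.33%. Windows whose CHH methylation in nrpe1 leaves was 0 to 1% kept 1.02% and 1.76% in dms5-1 and 1.28% and 2.33% in nrpe1. Windows with 5 to 10% CHH methylation left in nrpe1 leaves kept 2.71% and 3.75% in dms5-1, and 1.95% and 4.21% in nrpe1. In the gp5 library dms5-1 was above nrpe1 in the group of weakest Col-0 signal and in that of 5 to 10% left, and in the gp6 library below it in all 4 of these groups.

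RdDM windows outside genes, in pseudogenes (the annotation of many transposons) and in protein-coding genes were likewise near the nrpe1 level. Outside genes dms5-1 kept 1.23% and 1.96% of Col-0, and nrpe1 1.28% and 2.55%. In pseudogenes dms5-1 kept 2.27% and 2.61%, and nrpe1 1.44% and 3.08%. In protein-coding genes dms5-1 kept 1.93% and 3.18%, and nrpe1 1.98% and 3.51%. On the 5 chromosomes dms5-1 kept between 1.19% and 1.79% in gp5 and between 1.88% and 2.72% in gp6.

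The share of RdDM windows with any read was likewise close in the mutants. After thinning each library to 238959 background counts, 2.40% and 2.46% of RdDM windows held a read in dms5-1, 2.44% and 2.99% in nrpe1, and 52.1% and 42.9% in Col-0. Unthinned, the shares were 2.40% and 3.65% in dms5-1, 4.40% and 3.28% in nrpe1, and 63.2% and 48.2% in Col-0, and follow depth within the mutants. At equal background counts the dms5-1 libraries were level with the lower of the 2 nrpe1 libraries, with a difference of the means of -0.285 percentage points. Thinned to equal library totals instead, the difference was -0.505 percentage points.

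Windows of 1 class that follow each other were joined into stretches, 22162 of them in the RdDM class, and counts were summed over each. In dms5-1 against nrpe1, the quasi-likelihood test of edgeR, its p adjusted by Benjamini-Hochberg, called 0 of 9117 stretches of all classes (0.0%) at a threshold of 0.05. DESeq2 called 0 as well, and 146 stretches were higher and 127 lower in dms5-1 at an unadjusted p under 0.05. Leaving out nrpe1 replicate 5 gave 7 calls, and leaving out dms5-1 replicate 2 or Col-0 replicate 4 gave 1 each. Against Col-0, dms5-1 was lower in 6914 stretches (75.8%) and higher in 90 (0.987%), and nrpe1 was lower in 6908 (75.8%) and higher in 38 (0.417%). These comparisons share their Col-0 libraries. Without Col-0 replicate 4 the calls in either direction were 3118 in dms5-1, against 7004 (76.8%) with it, and 3136 in nrpe1, against 6946 (76.2%) with it.

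The filter on low counts left 6296 of the 22162 RdDM stretches, all of them with Col-0 reads. A stretch that passed it only through Col-0 had to be lower in a mutant, so the counts that follow describe the tested stretches and support nothing further. Of the 6296, 6228 were lower than Col-0 in dms5-1 and 6219 were lower in nrpe1, and 0 were higher in either. With a loose filter, 10672 of 15362 were lower in dms5-1 and 11113 in nrpe1. The median level of an RdDM stretch was 0 normalised counts in dms5-1, 1.02 in nrpe1 and 95.1 in Col-0. The median log2 change from Col-0 was -7.16 in dms5-1 and -6.78 in nrpe1, and the median difference of dms5-1 from nrpe1 was 0, as over all stretches. In dms5-1 3620 RdDM stretches had no read, in nrpe1 3032, and 2039 had none in either mutant. Fitted changes of stretches without a read depend on the prior count and are no measure of size.

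Stretches with more Col-0 reads showed the depth of the loss more closely. Among 4568 RdDM stretches with at least 400 Col-0 counts in other tags, the median dms5-1 level was 0% of Col-0, and the median nrpe1 level was 1.05%. The 90th percentile was 4.44% in dms5-1 and 4.39% in nrpe1. In dms5-1 2370 of them (51.9%) had no read, and in nrpe1 1874 (41.0%). More than 10% of the Col-0 level was left at 123 stretches in dms5-1 and at 119 in nrpe1. Of these, 90 were shared, which is 73.2% of the dms5-1 stretches and 75.6% of the nrpe1 stretches, and the values share their Col-0 libraries. The shared part was smaller at lower cut-offs. Among 13703 stretches with at least 50 Col-0 counts, 770 in dms5-1 and 718 in nrpe1 were above 10%. Of those, 233 were shared (30.3% and 32.5%). With at least 200 Col-0 counts the shared part was 51.6% and 56.4%.

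**Figure D3:**
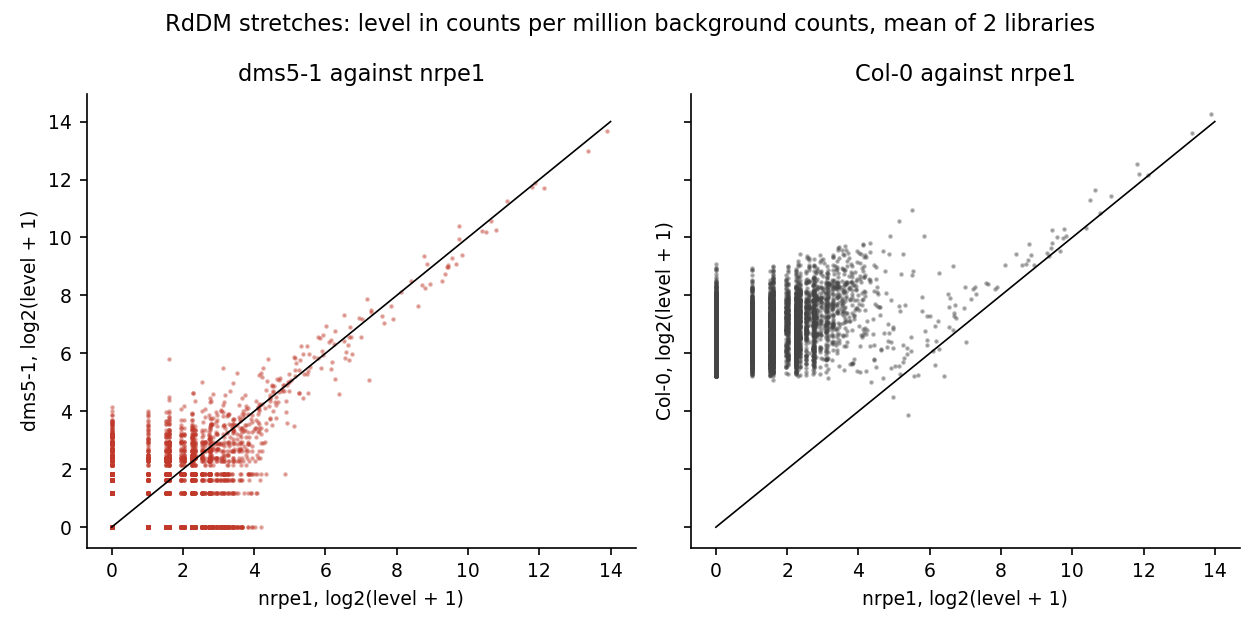
Level of each of the 6296 tested RdDM stretches, as log2 of the mean normalised count (per 1000000 background counts) plus 1, in dms5-1 (left) and Col-0 (right) against nrpe1, with the line of equal levels. Points of dms5-1 lie around the line, at low values for most stretches, and Col-0 points lie above it except at the stretches that are high in nrpe1 as well.

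The 10 RdDM stretches with the strongest Col-0 signal in other tags, among those with under 3 nrpe1 counts there, show the loss at single places. Summed over the 10, there were 2 and 7 counts in dms5-1, 15 and 11 in nrpe1, and 1115 and 584 in Col-0. In dms5-1 6 of the 10 had no read, in nrpe1 3, and in both mutants every count was below both Col-0 counts at all 10. In the same edgeR fit all 10 were called lower than Col-0 in dms5-1. Mutant counts were at most 5 and Col-0 counts at least 17, so all 10 passed the filter on low counts only through Col-0. They had to be lower, and these calls support nothing further. Between dms5-1 and nrpe1, 0 of the 10 passed (adjusted p of at least 0.906 in the same edgeR fit), and counts this low could hardly show a difference.

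The stretch chr4:7139401-7140050, between the protein-coding genes AT4G11860 and AT4G11870 and within 1 kb of both, had 0 and 0 counts in dms5-1, 2 and 0 in nrpe1, and 167 and 114 in Col-0. In Col-0 leaves 33.7% of its CHH cytosines were methylated, and in nrpe1 leaves 0%. Against a floor of 3 counts over the group, dms5-1 was at least 82.3-fold lower than Col-0. For nrpe1 the ratio was 149-fold (95% counting interval 40.8 to 1234). A count of 0 in both dms5-1 libraries is the lowest value they can show.

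The stretch chr3:9595351-9596000 overlaps CYP71B3, a cytochrome P450 gene, and had 0 and 0 counts in dms5-1, 2 and 0 in nrpe1, and 165 and 62 in Col-0, at least 66.5-fold lower in dms5-1. The stretch chr2:17307451-17307950 lies within 1 kb of LIS, which encodes a splicing factor, and had 0 and 0 counts in dms5-1, 0 and 2 in nrpe1, and 103 and 70 in Col-0. The stretch chr5:25668151-25668800 overlaps RPS28, a ribosomal protein gene, and AT5G64150, and had 0 and 0 counts in dms5-1, 2 and 1 in nrpe1, and 104 and 55 in Col-0. At these 3 places the few mutant reads were in nrpe1.

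Reads in dms5-1 were also seen at some strong stretches. The stretch chr1:19225801-19226900, within 1 kb of AT1G51805 and AT1G51810, had 0 and 4 counts in dms5-1, 2 and 2 in nrpe1, and 262 and 118 in Col-0, 83.4-fold lower in dms5-1 (95% counting interval 32.3 to 308). The stretch chr2:305551-306050, within 1 kb of AT2G01680, had 2 and 0 counts in dms5-1, 5 and 5 in nrpe1, and 84 and 52 in Col-0. It had the highest CHH methylation of the 10 in Col-0 leaves, 49.6%, and was 59.7-fold lower than Col-0 in dms5-1 (16.2 to 498) and 14.4-fold lower in nrpe1 (7.59 to 30.7). The stretch chr2:5215201-5215400 had 0 and 2 counts in dms5-1, 0 and 0 in nrpe1, and 58 and 24 in Col-0. The mutants thus differed by single reads in both directions.

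**Figure D4:**
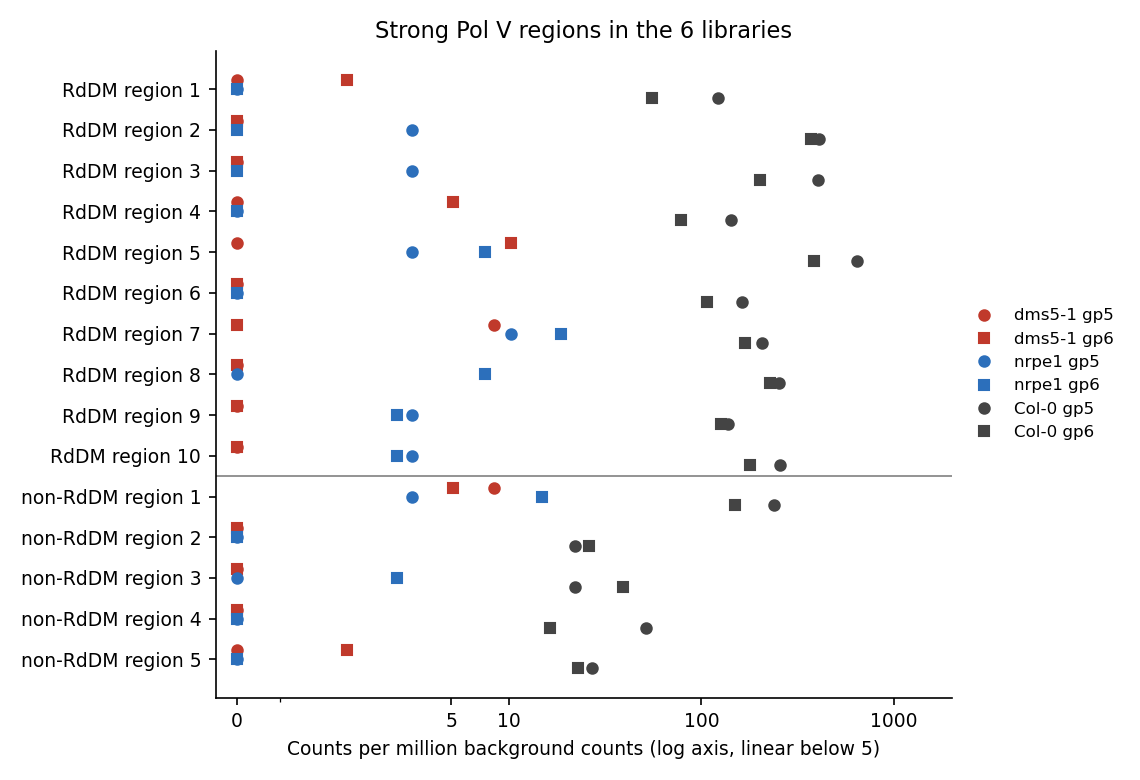
Normalised counts (per 1000000 background counts) at the 10 strongest RdDM stretches and the 5 strongest non-RdDM stretches in the libraries of dms5-1, nrpe1 and Col-0, on a log axis that is linear below 5. At every stretch shown, all mutant libraries lie below both Col-0 libraries.

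Genes known as targets of RdDM had few Pol V reads in dms5-1, as in nrpe1. The RdDM windows within or up to 1 kb from 10 such genes held 7 and 9 counts in dms5-1, 11 and 4 in nrpe1, and 450 and 230 in Col-0. FWA, a homeodomain gene silenced by methylation of promoter repeats, had 2 and 0 counts in dms5-1, 0 and 0 in nrpe1, and 41 and 24 in Col-0. SDC, an F-box gene silenced in the same way, had 0 and 2 counts in dms5-1, 4 and 0 in nrpe1, and 50 and 24 in Col-0. ROS1 (symbol DML1), a DNA glycosylase that removes methylation, had 0 and 0 counts in dms5-1, 5 and 0 in nrpe1, and 73 and 49 in Col-0, at least 35.7-fold lower in dms5-1. At these 3 genes neither mutant library of a tag came near its Col-0 library.

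QQS, an orphan gene that affects starch content, had the most dms5-1 counts of the 10. It had 0 and 6 counts in dms5-1, 2 and 0 in nrpe1, and 100 and 60 in Col-0. Pooled over the tags, dms5-1 was at 4.27% of Col-0 there, less than at SUVH2 (7.12%) and IBM1 (5.06%). SUVH9, a SET-domain protein that helps bring Pol V to methylated DNA, had 0 and 1 counts in dms5-1, 0 and 2 in nrpe1, and 69 and 18 in Col-0. Its paralog SUVH2 had 2 and 0 counts in dms5-1, 0 and 0 in nrpe1, and 22 and 10 in Col-0. IBM1, a histone demethylase, had 2 and 0 counts in dms5-1, 0 and 2 in nrpe1, and 41 and 4 in Col-0. ALN, the allantoinase gene, had 1 and 0 counts in dms5-1, 0 and 0 in nrpe1, and 34 and 24 in Col-0. BNS had no read in either mutant, against 18 and 15 counts in Col-0, and FLC, a repressor of flowering, had none against 2 and 2 in Col-0, which is too few to show a loss.

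Summed over whole gene bodies, 6 of these 10 genes were read deeply enough to test. Those that passed the filter only through Col-0, as SDC and ROS1 did, had to be lower in a mutant. For such genes a call against Col-0 supports nothing further. In dms5-1 all 6 (FWA, SDC, ROS1, QQS, IBM1 and SUVH2) were lower than in Col-0 in edgeR's quasi-likelihood test, where 1947 of 4924 gene bodies were lower (39.5%) and 118 were higher (2.4%), 41.9% in all. In nrpe1 all 6 were lower too, where 1963 gene bodies were lower (39.9%) and 43 were higher (0.873%), 40.7% in all. Their median log2 change from Col-0 was -3.30 in dms5-1 and -4.55 in nrpe1, against -0.46 and -0.60 over all gene bodies tested. Fitted changes of bodies without a read, such as ROS1 in dms5-1, are no measure of size. Without Col-0 replicate 4, 1 of the 6 was lower in each mutant, without Col-0 replicate 5, 3 of 7 were lower in each, and in DESeq2 3 of the 6 were lower in each. Leaving out 1 library of dms5-1 gave 4 of 8 in dms5-1, and leaving out nrpe1 replicate 4 gave 4 of 7 in nrpe1. Between dms5-1 and nrpe1, 0 of the 6 passed, with a median difference of 0.49, against 0.02 over all gene bodies. This median had no stable sign: it was -3.05 without dms5-1 replicate 2, -0.28 without dms5-1 replicate 1, -0.03 without Col-0 replicate 4 and -0.09 with a loose filter. SDC had a body level of 0 and 10.3 normalised counts in dms5-1, 0 and 0 in nrpe1, and 41.7 and 32.6 in Col-0, and ROS1 had 0 and 0 in dms5-1, 6.13 and 0 in nrpe1, and 127 and 107 in Col-0.

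The non-RdDM class held more of its Col-0 level than the RdDM class, in dms5-1 as in nrpe1. Its level was 84.6 and 80.2 per 1000 background counts in dms5-1, 67.5 and 82.8 in nrpe1, and 352 and 242 in Col-0. The dms5-1 libraries were at 24.1% and 33.1% of Col-0, and the nrpe1 libraries at 19.2% and 34.2%. The difference of dms5-1 from nrpe1 was 0.14 ± 0.15 on the log2 scale (SE; exact permutation test, p = 0.667, n = 2 each). It was -0.00813 without nrpe1 replicate 4 (gp5), and 0.10 without dms5-1 replicate 1 (gp5). The retained share was 6.03% in gp5 and -1.68% in gp6. Capping the windows at a maximum count gave -0.0225, and setting dms5-1 against all 5 nrpe1 libraries gave -0.22 (exact permutation test, p = 0.381, 0.381 adjusted), so no direction held. From Col-0 the difference was -1.82 ± 0.27 with the same tags (SE; exact permutation test, p = 0.333, n = 2 each) and -2.46 with all 6 Col-0 libraries (p = 0.0357, the smallest possible, 0.0714 adjusted).

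Within the non-RdDM class, both mutants were nearer to Col-0 in windows in protein-coding genes than outside genes, and nearer in windows of the lowest CHH methylation than at 1 to 5%. The 1429 non-RdDM windows of high nrpe1 counts held 36.6% and 37.9% of the class's counts in dms5-1, 39.0% and 36.9% in nrpe1, and 8.25% and 13.5% in Col-0. In its windows in protein-coding genes, without these 1429, dms5-1 was at 38.8% and 52.3% of Col-0, and nrpe1 at 29.9% and 53.3%. In its windows outside genes, dms5-1 was at 5.19% and 7.84%, and nrpe1 at 4.05% and 9.13%. At 0 to 1% CHH methylation in Col-0 leaves, dms5-1 was at 27.9% and 39.0% and nrpe1 at 21.3% and 40.4%. At 1 to 5% CHH methylation, dms5-1 was at 1.87% and 3.47%, and nrpe1 at 1.88% and 4.30%, close to what RdDM windows kept. In each of these groups the gp6 library of dms5-1 was below that of nrpe1. Over 44 groups of non-RdDM windows, without the 1429, dms5-1 and nrpe1 overlapped in 39, both dms5-1 libraries were higher in 5 and both were lower in 0. The highest retained share, 12.8%, was that of gp5 in protein-coding genes, where gp6 gave -2.16%. With the 1429 put back, they overlapped in 35, both dms5-1 libraries were higher in 8 and lower in 1, and the highest retained share was 17.9%. Here too the groups divide the same windows of the same libraries and are not separate observations.

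Of the 5 strongest non-RdDM stretches, 1 could be tested. It is chr4:216601-217250, which overlaps ATMYC1, a bHLH transcription factor gene, and has no CHH methylation in Col-0 leaves. It had 2 and 2 counts in dms5-1, 2 and 4 in nrpe1, and 97 and 46 in Col-0, and was 31.4-fold lower in dms5-1 (95% counting interval 12 to 117) and 25.2-fold lower in nrpe1 (11.3 to 69.9). The window chr1:24885601-24885800 in LIG6, a DNA ligase gene, had no read in dms5-1 or nrpe1 and 9 and 8 counts in Col-0. The window chr2:7632751-7632950, near AT2G17540, had none in either mutant and 21 and 5 in Col-0. Summed over the 5, there were 2 and 3 counts in dms5-1, 2 and 5 in nrpe1, and 147 and 78 in Col-0. Of 1012 non-RdDM stretches tested, 673 were lower than Col-0 in dms5-1 and 674 in nrpe1, while 10 were higher in dms5-1 and 3 in nrpe1. The limit given for RdDM stretches that passed the filter only through Col-0 holds for these too.

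Differences between dms5-1 and nrpe1 at single windows were rare. The quasi-likelihood test of edgeR passed 6 of 6182 windows (0.0971%) after adjustment over all windows, 5 higher (0.0809%) and 1 lower (0.0162%) in dms5-1. Against Col-0, 3993 windows passed in dms5-1 (64.6%), of which 3843 were lower (62.2% of those tested) and 150 higher (2.43%), and 3896 passed in nrpe1 (63.0%), of which 3838 were lower (62.1%) and 58 higher (0.938%). Windows that passed the filter on low counts only through Col-0 had to be lower in a mutant, and their calls support nothing further. Of the 6 windows that passed between dms5-1 and nrpe1, 4 are in ribosomal DNA. Among them is chr2:8851-9050 with 5114 and 1870 counts in dms5-1, 2634 and 1757 in nrpe1, and 1768 and 2267 in Col-0. This window is high in the gp5 library of dms5-1 only. The other two overlap each other within 1 kb of ALDH22A1, an aldehyde dehydrogenase gene, in the class free of Pol V transcription. The first, chr3:2094301-2094500, had 142 and 218 counts in dms5-1, 62 and 85 in nrpe1, and 131 and 68 in Col-0, a log2 difference of 1.41 ± 0.30 between dms5-1 and nrpe1 (SE; adjusted p = 0.00251 in edgeR). Outside ribosomal DNA, 0 RdDM or non-RdDM windows passed. Without dms5-1 replicate 1 no window passed, and without nrpe1 replicate 4 12 did, all of them lower in dms5-1.

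At gene bodies, 4 of 4924 (0.0812%) passed between dms5-1 and nrpe1, 3 higher (0.0609%) and 1 lower (0.0203%) in dms5-1. None of the 4 holds an RdDM window. TPL (AT1G15750), a transcriptional co-repressor, had 0 and 0 counts in dms5-1, 15 and 14 in nrpe1, and 20 and 8 in Col-0 (edgeR adjusted p = 0.0478). MTM2 (AT5G04540), a myotubularin phosphatase gene, had 16 and 7 counts in dms5-1, 0 and 0 in nrpe1, and 18 and 11 in Col-0 (edgeR adjusted p = 0.0423). ABCC1 (AT1G30400), a transporter of the vacuolar membrane, had 12 and 3 counts in dms5-1, 0 and 0 in nrpe1, and 7 and 13 in Col-0 (edgeR adjusted p = 0.0459). At these 3 genes 1 mutant was at 0 in its gp5 and gp6 libraries and the other near Col-0, on few reads. The nrpe1 libraries of other tags together held 75 counts at ABCC1 and 50 at MTM2, so nrpe1 was not without reads there.

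Phox4 (AT4G32070) was read more deeply, with 135 and 311 counts in dms5-1, 78 and 116 in nrpe1, and 186 and 39 in Col-0. Its log2 difference between dms5-1 and nrpe1 was 1.25 ± 0.29 (SE; edgeR adjusted p = 0.0423), while its 2 Col-0 libraries differed by more than that. Of 14 alternative settings, TPL passed in 4, ABCC1 in 4, Phox4 in 1 and MTM2 in 5, and no gene body passed in DESeq2. No gene body passed without dms5-1 replicate 1, Col-0 replicate 4 or Col-0 replicate 5, and 1 passed without nrpe1 replicate 4.

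Genes of the RdDM pathway and of DNA methylation were mostly too little read to test. Of 32 pathway genes listed, 28 were matched and 4 were tested. Between dms5-1 and nrpe1, 0 of the 4 passed. Against Col-0, 2 were lower in dms5-1 (SUVH2 and SPT5L, symbol KTF1, an elongation factor that works with Pol V) and 1 in nrpe1, where 39.5% and 39.9% of all gene bodies were lower. The call of SPT5L (edgeR adjusted p = 0.0478) was lost with library totals, a loose filter or DESeq2, and without either Col-0 library, dms5-1 replicate 1 or nrpe1 replicate 5. SPT5L had a level of 0 and 15.4 normalised counts in dms5-1, 0 and 48.5 in nrpe1, and 49.0 and 32.6 in Col-0. Its gp6 library in nrpe1 was as high as Col-0. Of 13 genes that keep up or remove methylation, 3 were tested, of which 0 passed between the mutants and 2 (ROS1 and IBM1) were lower than Col-0 in each mutant. Of 8 transposon names none was matched in the gene table, and they are not reported.

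Abundant mRNAs of photosynthesis, which RNA polymerase II makes, were listed as a set that Pol V does not transcribe. Of 21 such genes tested, 0 passed between dms5-1 and nrpe1, with a median difference of 0.35 (0.13 with DESeq2 size factors). Against Col-0, 10 were higher in dms5-1 and 5 in nrpe1, with 0 lower in either, while 2.4% and 0.873% of all gene bodies were higher. Their median log2 change was 0.82 in dms5-1 and 0.57 in nrpe1. Without dms5-1 replicate 1 or Col-0 replicate 5, 1 of the 21 passed in dms5-1, without dms5-1 replicate 2 5 did, and in a fit over 19 libraries 0 did. In nrpe1 the count was 0 without dms5-1 replicate 1, dms5-1 replicate 2, nrpe1 replicate 4 or Col-0 replicate 5 and with a loose filter, and 1 gene was lower in DESeq2 and in the fit over 19 libraries. Their median was above 0 in both mutants under every scaling tried.

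CAB3, which encodes a light-harvesting chlorophyll protein, had a level of 657 and 540 normalised counts in dms5-1, 538 and 377 in nrpe1, and 304 and 234 in Col-0. RBCS1A, a gene for the small subunit of Rubisco, had 866 and 843 in dms5-1, 750 and 642 in nrpe1, and 530 and 407 in Col-0. In both genes the order was dms5-1, nrpe1, Col-0 within each tag. The share of ribosomal DNA was also higher in the mutants than in Col-0, and its part in this was not tested. Of 14 housekeeping genes, 11 were matched and 9 tested, and 0 passed in any of the 3 comparisons. Their median difference was 0.45 between dms5-1 and nrpe1, 0.47 between dms5-1 and Col-0, and 0.01 between nrpe1 and Col-0. The first was 0.27 with DESeq2 size factors, 0.61 without dms5-1 replicate 1 and -0.00500 without dms5-1 replicate 2. In the main scaling, tested stretches of the class free of Pol V transcription had a median of 0.18 in dms5-1 against nrpe1. Against Col-0 that median was 0.35 in dms5-1 and 0.14 in nrpe1, so these medians of genes carry an offset of the scaling.

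**Figure D5:**
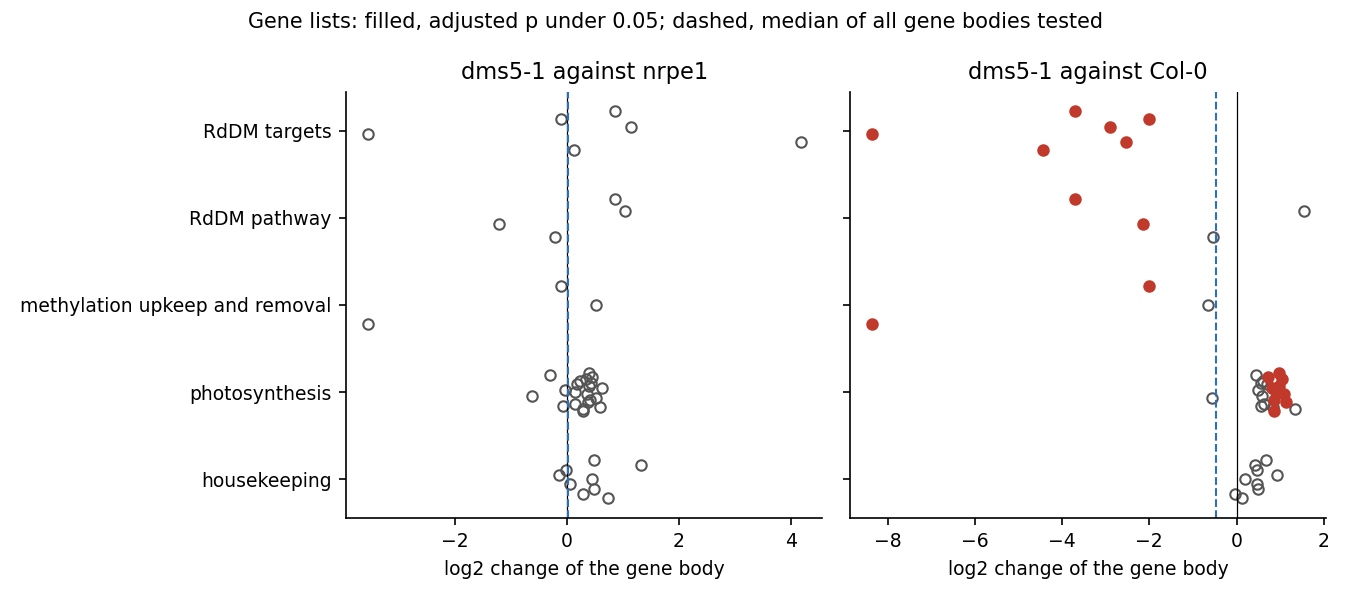
Log2 change of each tested gene body of the lists in dms5-1 against nrpe1 (left) and dms5-1 against Col-0 (right), filled where edgeR's adjusted p passed and with a dashed line at the median of all gene bodies tested. No listed gene passed against nrpe1; against Col-0 the RdDM targets lie below 0 (median -3.30) and the photosynthesis genes mostly above it (median 0.82).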

How the data were processed

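IPARE libraries were made from RNA pulled down with an antibody against NRPE1, and leaf DNA was read by bisulfite sequencing, per the labels' protocols. TAIR10 is the build named in the submitters' processing notes, which list Bismark, Bowtie2, cutadapt and UMI-tools; what each did, and how reads that map to several places were treated, is not stated there. The deposited values are whole-number counts of reads in 794311 windows of 200 bp, of which neighbours overlap by 50 bp, so a read can be counted in both. The authors deposited methylation levels as a fraction per window, averaged over samples with no coverage, so their depth is unknown; they are printed as percentages.

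Groups follow the labelled genotype, and libraries were scaled by background counts (class free of Pol V transcription, without 187 ribosomal DNA windows). Counts of windows, of stretches and of gene bodies (windows with their midpoint in the gene) were tested with edgeR 4.0.16 in R 4.3.3: quasi-likelihood F-test on the 6 libraries with genotype as the only term, filterByExpr (minimum count 10, minimum total 15), Benjamini-Hochberg adjustment over all features tested, threshold 0.05. DESeq2 1.42.0 was an alternative. The procedure was run on simulated data, with changes placed only in features that hold enough mutant reads. This does not show what it can detect at stretches with hardly any mutant reads. Class levels were compared by exact permutation tests in Python 3.11.15. Intervals are 95% counting intervals and a group without reads was set to 3 counts; both cover counting error only. Background counts of 238959 to 489157 per library limit the precision.

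The members, lists and groups of windows were chosen with earlier results of these data known. Genes and stretches named are those called between dms5-1 and nrpe1 (at most 10 in each direction, changed the same way in both tags), the 10 RdDM and 5 non-RdDM stretches of highest Col-0 counts per window in other tags with under 3 nrpe1 counts there, and the measured members of the lists. Windows named for high nrpe1 counts, and those called between the mutants, were picked after their values were seen. Genes come from a RefSeq table of TAIR10.1, whose coordinates are not printed. No label says that replicates were separate plantings, so p-values measure the spread between libraries, which may be technical. No libraries of a genotype agreed within sampling noise (chi-square of at least 3.36 per degree of freedom). Deviations of libraries of 1 tag were not correlated over 12969 genes (correlations of 0.000334 to 0.000877), and the main tests do not pair the tags. Genes with as few as 15 counts over the 6 libraries entered. Counting noise weakens such correlations, so an effect of the tag is not excluded. Ratios, shares of Col-0 and retained shares are given per tag as a description. Alternatives changed the scaling, filter, tool, set of libraries, capping of windows, use of every other window and a replicate block. Every other window, calls outside ribosomal DNA, and the groups by CHG level, annotation, chromosome and stretch length were added after seeing the data.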

Additional observations from a re-analysis of the deposited data

How the results depend on the processing

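Calls between dms5-1 and nrpe1 were few under every setting. The 6 windows became 0 with library totals, with a loose filter, in DESeq2 and in a fit of 19 libraries, 1 with a capped scaling class and 2 outside ribosomal DNA. The 4 gene bodies became 0 with a loose filter, in DESeq2, in the fit of 19 libraries and with the replicate block, under which 6 windows and 0 stretches passed. Against Col-0 the replicate block left 6471 stretches in dms5-1 and 6509 in nrpe1, 4 and 3 of the 6 RdDM targets lower, and 9 and 2 of the photosynthesis genes higher. No more than 12 windows, 7 stretches and 5 gene bodies were called when each library was left out (lowest 0 for each).

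Counts of calls against Col-0 moved with the filter, tool and libraries. Windows of dms5-1 (3993) became 19118 with the loose filter, 1529 in DESeq2 and 29998 with 19 libraries, and those of nrpe1 (3896) became 25203, 1448 and 29955. Stretches of dms5-1 (7004) became 13774, 4193 and 17921, and those of nrpe1 (6946) became 14578, 4141 and 18261. Gene bodies of dms5-1 (2065) became 3279 with the loose filter and 6178 with 19 libraries, and those of nrpe1 (2006) became 3594 and 6990. Leaving out each library gave 993 to 8386 windows, 3118 to 10042 stretches and 701 to 2946 gene bodies in dms5-1, and 981 to 8378, 3136 to 10132 and 700 to 2955 in nrpe1, lowest without Col-0 replicate 4. The causes were not tested. The median log2 change of all gene bodies in dms5-1 against Col-0, -0.46, was -0.54 to -0.24 under other scalings.

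The RdDM difference of dms5-1 from nrpe1 ran from -0.36 to -0.03 without 1 library, and from Col-0 from -4.18 to -3.63 (-4.51 with 6 Col-0 libraries). The non-RdDM difference from nrpe1 turned to -0.0225 with capped windows and -0.22 with 5 nrpe1 libraries, and ran from -0.00813 to 0.29 without 1 library; from Col-0 it ran from -2.09 to -1.56 (-2.46 with 6). Scaled by library totals without ribosomal DNA, which include both Pol V classes, the difference from Col-0 was smaller, -2.88 (RdDM) and -0.81 (non-RdDM). In the main scaling, retained shares ran from -1.81% to 0.210% (RdDM) and -1.68% to 6.03% (non-RdDM) by tag. They were -3.29% and -4.07% over all libraries. With totals without ribosomal DNA they were -4.44% and 0.430% (RdDM) and 19.8% and -5.10% (non-RdDM) in gp5 and gp6. The highest retained share of the RdDM CHH groups was -0.527% with library totals, -0.468% with the capped scaling class, -0.628% over all libraries and -0.0961% or 2.2% in 1 tag. For non-RdDM windows it was 17.0% with totals without ribosomal DNA and 4.27% or 12.4% in 1 tag. The difference in the thinned share of windows with a read ran by tag from -0.531 to -0.0397 percentage points (RdDM) and -0.240 to 0.699 (non-RdDM).

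With 2 libraries a group, class tests cannot pass 0.05. At most RdDM stretches the mutants hold 0 to a few reads, so a small share kept in dms5-1 was not detectable there.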
